A study of Mus musculus with 4 samples.

Results

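Potassium channel genes were followed in single cells of mouse prefrontal cortex from birth to adulthood. The members were all genes whose symbol starts with Kcn and that had at least 1 unique molecular identifier (UMI, 1 captured mRNA molecule) in any library, which gave 99 of 29027 genes with a UMI. Of these, 94 were annotated as protein coding, and the remaining 5 were noncoding transcripts at Kcn loci. The series held 4 libraries of dissociated prefrontal cortex from C57BL/6 mice (C57BL/6J in the study's text), 1 at each of P1, P4, P10 and Adult (postnatal days 1, 4, 10 and 84). The study's methods give 2 female mice per age, and the deposited cells are not tied to a mouse. With 1 library per age there was no test between ages: intervals below cover counting error only, and an age cannot be told apart from its library.

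After filtering, the P1, P4, P10 and Adult libraries kept 11545, 19014, 15272 and 14087 cells, with median depths from 11065 to 25800 UMIs. Levels are UMIs summed over the cells of a class and scaled to counts per 1000000 UMIs (CPM), leaving mitochondrial and ribosomal protein genes out of the total. Where 4 levels or ratios stand in a row, their order is that of the libraries by age, P1 first and Adult last, and the range after a ratio is its 95% interval. The counts come from the 3' ends of mRNAs and were not divided by gene length. The P1 library stood apart in its file header, which names a newer pipeline version, other beads and intronic reads that were not excluded, and it held 120.4 CPM of Y-linked UMIs against at most 0.190 in the other libraries. For P1 these Y-linked UMIs go against the female sex given in the study's methods. Sex thus cannot be told apart from the P1 library. In intratelencephalic (IT)-like cells, the 2302 genes of the longest genomic span, 70.0 kb or more, had a median log2 ratio of P1 over P4 of 0.32, whereas the 2301 shortest had -0.19. The age comparison was therefore made between Adult and P4, whose headers agree, where the same medians were -0.03 and -0.22, and P1 levels are given beside it. P4, P10 and Adult shared 319 to 368 cell barcodes pairwise and P1 shared 12 to 20 with each.

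Potassium channels let potassium ions leave the cell and so set the resting potential, end the action potential and space the spikes of a train. Voltage-gated (Kv) subunits open with depolarization, inward rectifiers (Kir) and tandem-pore leak channels (K2P) act near rest, and calcium-activated channels follow calcium entry. Auxiliary subunits such as the KChIP proteins (Kcnip genes), the Kv beta subunits (Kcnab genes) and the BK beta subunits (Kcnmb genes) change the gating and the surface level of the pore-forming subunits. In cortex, fast-spiking interneurons depend on Kv3 channels, and astrocytes take up potassium through Kcnj10 channels.

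Cells were assigned to classes by clusters and markers that used no Kcn gene, and each class is called like its markers. Neurod6, an excitatory marker, had 373 to 2432 CPM in IT-like cells, Gad1 had 410.0 to 2893 in MGE-like and 763 to 3007 in CGE-like interneurons and Aqp4, the astrocyte water channel, had 179.8 to 2610.0 in astrocyte-like cells, each over the 4 libraries. Neurod6 alone does not set IT-like cells apart. In Adult it had 483 CPM in layer 5 near-projecting-like and 332 in layer 6 corticothalamic-like cells, and at P4 it had 610 in astrocyte-like cells. The IT-like name rests on a longer marker list. Gja1, another gene of the astrocyte-like marker list, had 74.0, 570, 3132 and 3683 CPM in astrocyte-like cells. At P1 this lay below the 150 CPM of Gja1 in vascular-like cells, so the P1 astrocyte-like class is less clearly marked. Of the 99 members, 69 reached a mean of 10 CPM over the libraries in at least 1 class and 31 reached 100 CPM. IT-like cells held 53 members above 10 CPM, MGE-like interneurons 50, astrocyte-like cells 42 and microglia-like cells 35. The remaining 30 members stayed below 10 CPM in each of the 11 classes compared. They included 3 of the 8 Kv1 genes (Kcna3, Kcna7 and Kcna10) and 7 of the 14 K2P genes.

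The members' summed level was higher at P10 and in Adult than at P1 and P4 in neurons. In IT-like cells, the excitatory neurons that project within the telencephalon, all Kcn genes together gave 2742, 2383, 4001 and 6199 CPM. In inhibitory-like neurons the sum was 3307, 2784, 3696 and 7208 CPM. The sum in astrocyte-like cells was 2496, 2572, 3838 and 4002 CPM, and in microglia-like cells it was 928, 1339, 1298 and 1464 CPM. The sums of these neuron classes and of astrocyte-like cells were thus similar at P4, and the neuronal sums were the higher ones in Adult. At P4, however, astrocyte-like cells also held neuronal transcripts, with Neurod6 at 610 and the synaptic gene Snap25 at 425 CPM. IT-like cells had 1860 and 547 CPM of them, and 311 of the 1425 astrocyte-like cells were marked as doublets. The part of neuronal RNA in the astrocyte-like sum was not tested. By family, the Kv1 genes of IT-like cells went from 105 CPM at P4 to 572 in Adult and the Kir genes from 113 to 650.0 CPM. The small conductance calcium-activated family was the one of the 12 channel and auxiliary families with a lower sum in Adult IT-like cells, at 61.6 and 41.6 CPM.

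**Figure D1:**
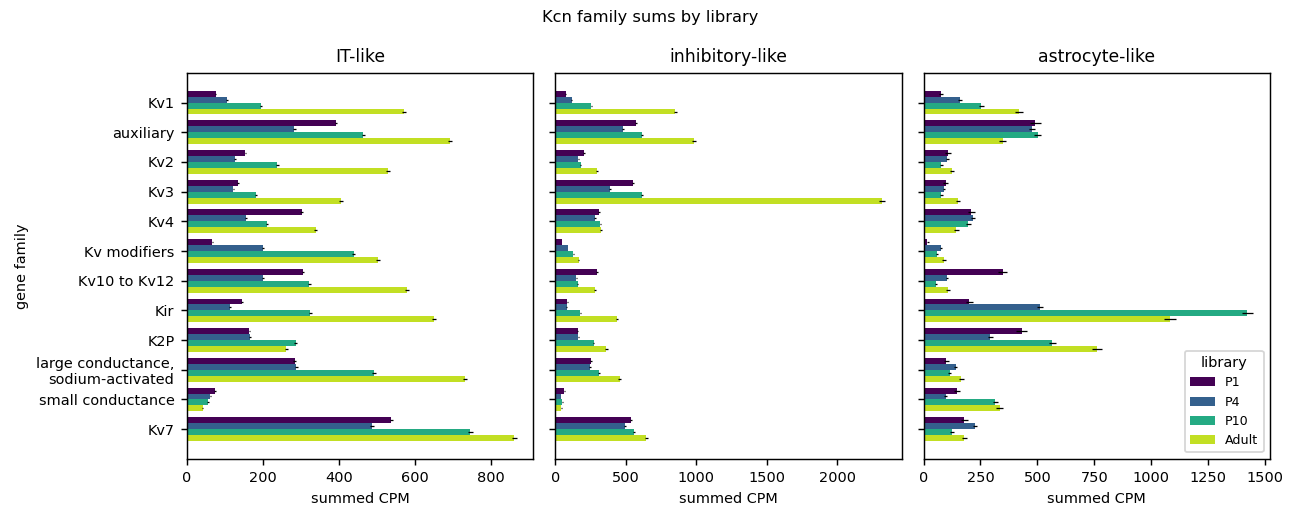
Summed CPM of each Kcn family (bars, 1 color per library) in IT-like, inhibitory-like and astrocyte-like cells, with 95% counting intervals. The horizontal axes differ between panels. The Kv3 sum of Adult inhibitory-like neurons (2319 CPM) and the Kir sum of P10 astrocyte-like cells (1422 CPM) are the longest bars of their panels.

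In IT-like cells, 35 of 53 members past the filter were at least 2-fold higher in Adult than at P4 with an interval that excluded 1, against 14.1% of all genes past the same filter, and 7 of 53 were lower, against 18.8%. The median log2 ratio was 1.33 for the 53 members and -0.17 for all 9253 genes. In the following, rose and fell are used of members past this 2-fold limit. The filter was a mean of at least 10 CPM over the libraries of the class, Adult included. A gene could thus pass it through 1 library, as Kcnc2 and Kcnj6 did through Adult in IT-like cells. Kcnmb2 and Kcnip1, which fell, passed it through P1, a library outside the Adult and P4 comparison. All 4 Kv1 genes past the filter rose, as did all 4 Kv3 genes, 5 of 6 Kir genes, 2 of 3 Kv4 genes and 1 of 3 Kv7 genes. With a mean of at least 50 CPM in place of 10, 22 members rose and 0 fell. Here and below, counts at that filter and at other settings stand without a share over all genes. The shares given belong to the main setting with 10 CPM. The class did not hold the same cells in each library: clusters led by genes such as Fosl2, Npy and Vegfd with 531 cells at P1, 740 at P4 and 1152 at P10, and one led by Ntf3, Sostdc1 and Mdga1 with 1828 cells at P4, did not meet all the naming rules and were left out, while no such cluster was separate in Adult. The left-out P4 cluster of 1828 cells had a higher IT-like marker score, 1.10, than the P4 clusters kept as IT-like, 0.77 and 0.59. It failed a naming rule because Pou3f1, a marker of layer 5 pyramidal tract-like cells, was among its leading genes. With all the left-out clusters added, a choice made after seeing the data and called the wider IT-like class, 35 members were higher and 7 lower. The P4 IT-like class also held a cluster of 2006 cells with Igfbpl1, a marker of newborn excitatory neurons, among its leading genes. At P1, 501 newborn excitatory-like cells led by Eomes were kept out of the IT-like class.

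The promoters of Kcna2, Kcnc1, Kcnc2 and Kcnj4 are shown (RefSeq, GRCm38.p6, 250 bases before to 50 after a transcription start, 5′ to 3′), because these genes rose both in IT-like and, below, in inhibitory-like neurons and their windows differ in base composition. Capitals mark the letters GGGCGG (a GC box) or GGACAG (part of the element bound by the repressor REST) on either strand.
Kcna2: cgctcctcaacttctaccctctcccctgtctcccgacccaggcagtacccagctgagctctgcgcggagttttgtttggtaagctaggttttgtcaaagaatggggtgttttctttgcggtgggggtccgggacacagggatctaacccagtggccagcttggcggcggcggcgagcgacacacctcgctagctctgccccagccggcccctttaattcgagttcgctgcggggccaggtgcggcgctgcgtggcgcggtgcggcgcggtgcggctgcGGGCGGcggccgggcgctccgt
Kcnc1: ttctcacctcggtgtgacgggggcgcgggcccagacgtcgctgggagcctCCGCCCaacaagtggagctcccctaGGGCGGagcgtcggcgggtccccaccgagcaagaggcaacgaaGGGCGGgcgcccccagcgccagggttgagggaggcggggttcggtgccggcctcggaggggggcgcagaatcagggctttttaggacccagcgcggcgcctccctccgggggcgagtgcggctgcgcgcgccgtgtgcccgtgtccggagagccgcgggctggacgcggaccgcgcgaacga
Kcnc2: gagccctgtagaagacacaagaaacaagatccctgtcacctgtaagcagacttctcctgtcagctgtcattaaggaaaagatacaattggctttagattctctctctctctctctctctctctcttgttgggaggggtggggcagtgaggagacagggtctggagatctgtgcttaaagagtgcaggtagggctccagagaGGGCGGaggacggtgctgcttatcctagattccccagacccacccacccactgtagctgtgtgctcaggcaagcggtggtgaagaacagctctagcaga
Kcnj4: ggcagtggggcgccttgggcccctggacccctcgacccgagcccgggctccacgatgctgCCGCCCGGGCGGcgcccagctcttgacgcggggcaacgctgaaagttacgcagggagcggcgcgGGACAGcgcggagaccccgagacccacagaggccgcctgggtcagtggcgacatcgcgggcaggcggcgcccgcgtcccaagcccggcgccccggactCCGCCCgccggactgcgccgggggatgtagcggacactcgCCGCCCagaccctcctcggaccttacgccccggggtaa
These windows lie at chr3:107101317-107101616 (plus strand), chr7:46396218-46396517 (plus), chr10:112269767-112270066 (plus, the first of the starts listed for Kcnc2) and chr15:79505192-79505491 (minus). Their GC content was 66.7%, 74.7%, 52.7% and 76%, and they held 31, 41, 3 and 41 CpG dinucleotides. The Kcnc2 window is thus the AT-richer one, near the median of 52.7% over all 32851 promoters of this length, and the median of the 97 windows listed for 72 Kcn genes was 58%. The other windows listed for Kcnc2 held no GGGCGG or GGACAG. The GENCODE M21 start of Kcnc2, at 112271121, lies downstream of the window printed. GGGCGG was found in 47.4% of the Kcn windows and 35.7% of all, GGACAG in 29.9% and 22.2%, CACGTG in 7.22% and 7.15%, TATAAA in 5.15% and 13.6%, and TGACGTCA in 0% and 1.79%. Motifs were read on both strands, GGACAG and GGGCGG can share an end base, and a match is not a bound site. Of the 35 members that rose in IT-like cells, 26 had a window, and 46.3% of their 41 windows held GGGCGG against 45.5% of the 11 windows of the 7 members that fell. In the same order, GGACAG was in 26.8% and 45.5% of these windows, CACGTG in 4.88% and 9.09%, and TATAAA in 4.88% and 0%. The windows of the members that fell are few, and these differences were not tested.

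Among the Kv1 genes, Kcna2, which encodes a low-threshold delayed rectifier of axons, had 25.9, 34.5, 76.8 and 346 CPM in IT-like cells. Adult stood above each of the younger libraries, and the log2 ratio of Adult over P4 was 3.32 (95% interval 3.27 to 3.38), 10.02-fold. Kcna1, its frequent partner in axonal channels, had 14.3, 15.05, 26.5 and 86.7 CPM and rose by a log2 ratio of 2.53 (95% interval 2.43 to 2.62). Kcna4 and Kcna6 rose by 1.91 (1.81 to 2.02) and 1.12 (1.06 to 1.18). The beta subunits that bind Kv1 channels moved with them: Kcnab2 had 19.8, 19.4, 65.1 and 169 CPM, a log2 ratio of 3.12 (95% interval 3.04 to 3.20), and Kcnab1 rose by 1.90 (1.83 to 1.97). Kcna2 lies on chromosome 3, 107101146 to 107115005, and Kcna1 on chromosome 6, 126640397 to 126646384 (GENCODE M21, GRCm38).

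Kv2 and Kv3 genes encode delayed rectifiers, of the cell body for Kv2 and of fast repolarization for Kv3. Kcnb2, a Kv2 gene, had 95.4, 54.1, 97.4 and 145 CPM in IT-like cells and rose by a log2 ratio of 1.42 (95% interval 1.37 to 1.47). The Kv3 gene Kcnc4 had 6.30, 17.2, 67.2 and 101 CPM, a rise of 2.56 (95% interval 2.47 to 2.64). Kcnc2 had the largest ratio of the members, 4.0 (95% interval 3.84 to 4.16), from 4.77 CPM at P4 to 76.1 in Adult. Its level is that of a minor transcript in these cells: Kcnc2 reached 1171 CPM in Adult inhibitory-like neurons and 38.8 in Adult microglia-like cells, and Gad1, an interneuron gene, went from 5.40 to 21.1 CPM in the IT-like cells. The part of free RNA in the Kcnc2 rise was not tested.

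Silent Kv subunits form no channel alone and change Kv2 channels when they join them. Of the 4 past the filter in IT-like cells, 3 rose. Kcnv1 had 37.7, 86.6, 179 and 292 CPM, with each library above the earlier ones, and rose by 1.75 (95% interval 1.71 to 1.79). Kcnf1 rose by 2.25 (2.17 to 2.33) and Kcns2 by 1.89 (1.79 to 1.98). Kcng1 had its highest level at P10, with 9.62, 62.2, 105 and 36.2 CPM, and its log2 ratio of -0.78 (95% interval -0.85 to -0.71) did not pass 2-fold.

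The Kir genes gave some of the steepest rises. Kcnj4, a strong inward rectifier, had 3.59, 14.3, 108 and 199 CPM in IT-like cells, a log2 ratio of 3.8 (95% interval 3.71 to 3.89) that amounts to 14.0-fold. Its level was already 7.60-fold above P4 at P10. Kcnj3, Kcnj6 and Kcnj9 encode subunits of channels opened by G protein-coupled receptors. Kcnj9 had 2.97, 16.3, 78.0 and 171 CPM and rose by 3.40 (95% interval 3.31 to 3.48). Kcnj6 was the lowest of the set from P4 on, with 8.39, 5.07, 14.2 and 27.0 CPM (log2 ratio 2.41, 2.25 to 2.58), and Kcnj3 rose by 2.10 (2.04 to 2.15). Kcnj11, the pore of ATP-sensitive channels, had 16.2, 9.84, 15.7 and 46.8 CPM and rose by 2.25 (2.14 to 2.37). Kcnj2 is the Kir gene past the filter that did not rise, with 60.5, 22.6, 6.98 and 19.8 CPM.

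Members of the ether-a-go-go families also rose. Kcnh1 had 10.6, 28.3, 58.3 and 138 CPM in IT-like cells, a log2 ratio of 2.29 (95% interval 2.22 to 2.35), Kcnh5 rose by 2.47 (2.36 to 2.58), Kcnh3 by 2.10 (1.98 to 2.22) and Kcnh7 by 1.59 (1.55 to 1.62). Kcnh7 spans 491 kb and had 221, 104, 171 and 312 CPM, with P1 above P4. Kcnq5, Kcnd2 and Kcnip4 showed the same order, with 264, 233 and 167 CPM at P1 and 69.8, 103 and 50.3 at P4. Over the 24 members among the longest genes the median log2 ratio of P1 over P4 was 0.75, and over the 9 among the shortest it was -1.20. For such genes the P1 level cannot be told apart from the intronic reads of that library.

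Genes of the M-current and of calcium-activated channels were among the most abundant members in IT-like cells, and some changed less. Kcnq3, an M-channel subunit, had 127, 267, 480.1 and 441 CPM and a log2 ratio of 0.72 (95% interval 0.70 to 0.75). It did not pass 2-fold, while Kcnq5 did (1.33, 1.29 to 1.38). Kcnma1, the pore of the large conductance (BK) channel, had the highest Adult level of any member, with 215, 229, 376 and 615 CPM, and rose by 1.42 (95% interval 1.4 to 1.45). Its neuronal beta subunit Kcnmb4 had 58.2, 94.4, 104 and 84.5 CPM (log2 ratio -0.16, -0.21 to -0.11). The sodium-activated channel genes Kcnt1 and Kcnt2 rose by 1.08 (0.98 to 1.19) and 1.22 (1.16 to 1.29).

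The A-type channels open below the spike threshold and delay firing. Their pore genes Kcnd2 and Kcnd3 rose by 1.17 (1.13 to 1.21) and 1.31 (1.25 to 1.38) in IT-like cells. The KChIP subunit genes Kcnip2, Kcnip3 and Kcnip4 rose by 1.41 (1.32 to 1.5), 2.19 (2.13 to 2.26) and 1.34 (1.29 to 1.4). Kcnc1 rose by 1.30 (1.24 to 1.35). The leak channel genes Kcnk1 and Kcnk2 rose by 1.87 (1.79 to 1.95) and 1.02 (0.93 to 1.1). Kcnn2, a small conductance channel, had 38.1, 14.6, 19.0 and 16.5 CPM and did not pass 2-fold.

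The 7 members that fell in IT-like cells each had a mean below 50 CPM. Kcnmb2, which inactivates BK channels, had 38.8, 19.8, 3.58 and 0.789 CPM, each library below the earlier one, and had a log2 ratio of -4.65 (95% interval -5.05 to -4.28). Kcnip1 had 31.4, 13.5, 6.36 and 1.91 CPM (log2 ratio -2.82, -3.08 to -2.57), and Kcnk10, a leak channel gene, had 64.0, 37.7, 25.1 and 7.52 CPM (-2.33, -2.46 to -2.20). Kcnmb2 and Kcnip1 passed the filter only with P1 counted in their mean. The log2 ratios of Kcnn1 and Kcnh4 were -1.95 (-2.07 to -1.84) and -1.94 (-2.07 to -1.8). The noncoding Kcnq1ot1, the antisense transcript of the imprinted Kcnq1 domain, had 91.0, 46.8, 26.6 and 22.8 CPM (-1.03, -1.12 to -0.95), and Kcnmb4os2 a ratio of -1.58 (-1.71 to -1.46). Kcnmb4os2 shares 693 exon bases with Kcnmb4 on the opposite strand, and counting by strand was not stated. In all, 25 members share exon bases with another listed gene, Kcnj3, Kcnj9 and Kcnh7 among them.

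**Figure D2:**
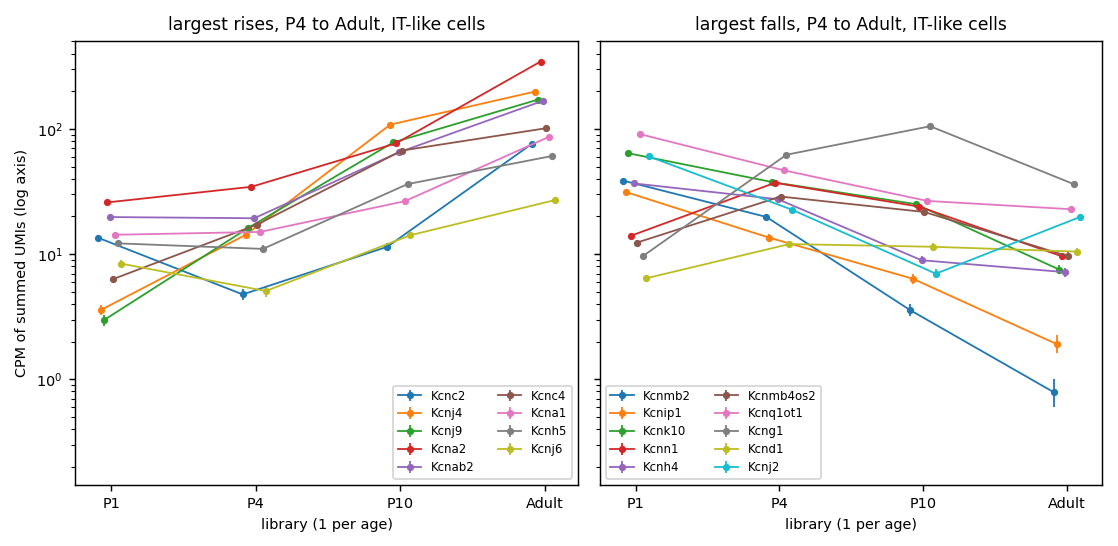
CPM (log axis) in the 4 libraries of IT-like cells for members with the largest rises and the largest falls from P4 to Adult, some of which do not reach 2-fold, with 95% counting intervals. Kcna2 ends at 346 CPM and Kcnmb2 at 0.789 CPM.

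The 35 rises in IT-like cells had different timing. The groups below were not counted over all genes, so whether their split is particular to the members was not tested. At least 2-fold rises from P4 to P10 and again from P10 to Adult were found for 5 members, Kcna2, Kcnab2, Kcnc2, Kcnh1 and Kcnj9. For 16 members the step from P4 to P10 passed 2-fold and that from P10 to Adult did not, among them Kcnf1, which had 6.46, 21.2, 106 and 101 CPM, and Kcnj4. For 6 members, among them Kcna1, Kcnc1, Kcnd3, Kcnip3 and Kcnj11, the later step passed and the earlier did not. Kcnip3 is an example, with 33.0, 30.0, 40.7 and 137 CPM. In the remaining 8, neither step passed by itself. Inhibitory-like neurons had 7, 2, 8 and 9 members in these groups, in the same order, again without a count over all genes.

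Inhibitory-like neurons, the MGE-like and CGE-like interneurons together, also gained Kcn transcripts: 26 of 50 members were at least 2-fold higher in Adult than at P4 (background 12.1%) and 4 of 50 were lower (background 17.6%). The members' median log2 ratio was 1.08, against -0.17 over all genes. All 4 Kv1, all 4 Kv3 and all 5 Kir genes past the filter rose, while 0 of 3 Kv4 and 0 of 3 Kv7 genes did. With a mean of at least 50 CPM, 13 members rose and 1 fell. The Kv3 genes were the most abundant in Adult. Kcnc2 had 360.1, 175, 318 and 1171 CPM, a log2 ratio of 2.74 (95% interval 2.70 to 2.79), and Kcnc1 had 131, 128, 182 and 888 CPM, a ratio of 2.80 (95% interval 2.75 to 2.85). Kcnc4 rose by 1.20 (1.07 to 1.32). Adult was the highest library for Kcnc1 and Kcnc2.

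The largest rise in inhibitory-like neurons was that of Kcna1, with 3.13, 5.42, 18.6 and 124 CPM and a log2 ratio of 4.51 (95% interval 4.29 to 4.74). Kcna1 passed the filter only with Adult counted in its mean. Kcna2 had 20.2, 34.1, 103 and 549.8 CPM, 16.1-fold between P4 and Adult. Kcnab3, a Kv beta subunit gene, had 6.45, 7.58, 17.1 and 107 CPM and rose by 3.83 (95% interval 3.64 to 4.02), whereas in IT-like cells it did not reach the filter. Kcnab1 and Kcnab2 rose by 3.36 (3.24 to 3.47) and 2.55 (2.46 to 2.65). Thus each of the Kv beta genes rose here together with the Kv1 genes they bind. Kcnab3 shares 147 exon bases with its antisense gene Kcnab3os. Kcnj4 and Kcnj9 rose by 3.67 (3.46 to 3.89) and 3.49 (3.32 to 3.66). The excitatory gene Slc17a7 rose beside them, from 40.8 to 252 CPM in MGE-like and from 47.6 to 260.2 in CGE-like cells, and the part of excitatory RNA in these rises was not tested. The leak channel gene Kcnk3 had 29.2, 33.7, 52.3 and 124 CPM (1.88, 1.78 to 1.99).

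The interneuron mix differed between the libraries, since Pvalb-like cells could be named at P10 and in Adult only. Cells led by Sv2c, Lamp5 and Npy, a separate cluster of 239 cells at P10 when the resolution was 1.0, were part of the CGE-like class there, and in Adult a cluster of 154 cells led by Npy, Sv2c and Kit was left out of it. Sst-like cells of Adult could be set only against a P4 cluster that held all MGE-like cells, which at a resolution of 1.0 split into 784 Sst-like cells and 1126 others led by Erbb4 and Lhx6. This ratio thus still mixes types, and its log2 values were 3.84 (3.53 to 4.16) for Kcna1, 3.77 (3.66 to 3.88) for Kcna2, 1.77 (1.70 to 1.84) for Kcnc1, 1.65 (1.60 to 1.71) for Kcnc2 and 2.19 (1.91 to 2.47) for Kcnab3. In Adult, Pvalb-like cells, whose marker belongs to fast-spiking basket cells, had 2072 CPM of Kcnc2 and 1559 of Kcnc1, against 674 and 389 in Sst-like cells. The log2 ratios of Pvalb-like over Sst-like were 1.62 (1.58 to 1.66) and 2.0 (1.95 to 2.06) in Adult, and 0.87 (0.81 to 0.93) and 0.67 (0.58 to 0.76) at P10, where neither passed 2-fold. Kcnab3 was past 2-fold in both libraries, with ratios of 2.22 (1.85 to 2.62) and 2.72 (2.54 to 2.91).

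The 4 members that fell in inhibitory-like neurons were Kcnh4 with 39.0, 27.4, 4.90 and 1.26 CPM, Kcnk10 with 29.3, 17.6, 8.29 and 2.48 CPM, Kcnq1ot1 with 147, 77.5, 39.9 and 28.8 CPM and Kcnu1 with 13.1, 14.4, 11.4 and 6.59 CPM. Their log2 ratios were -4.44 (-5.05 to -3.89), -2.83 (-3.26 to -2.42), -1.43 (-1.56 to -1.30) and -1.13 (-1.41 to -0.85). Kcnk10 passed the filter in these neurons only with P1 counted in its mean. The excitatory gene Neurod6 was also lower in Adult than at P4. It went from 353.8 to 41.95 CPM in MGE-like and from 428.5 to 41.19 in CGE-like cells. The part of excitatory RNA in these falls was not tested. Kcnip1 and Kcnmb2, which fell in IT-like cells, did not pass here: Kcnip1 had 168, 153, 212 and 168 CPM, and Kcnmb2 had 107, 56.7, 56.2 and 64.4 CPM. Kcnip2 missed the limit at -0.83 (-0.93 to -0.74), and Kcnd2, a Kv4 gene that rose in IT-like cells, had 179, 185, 239.6 and 183 CPM.

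**Figure D3:**
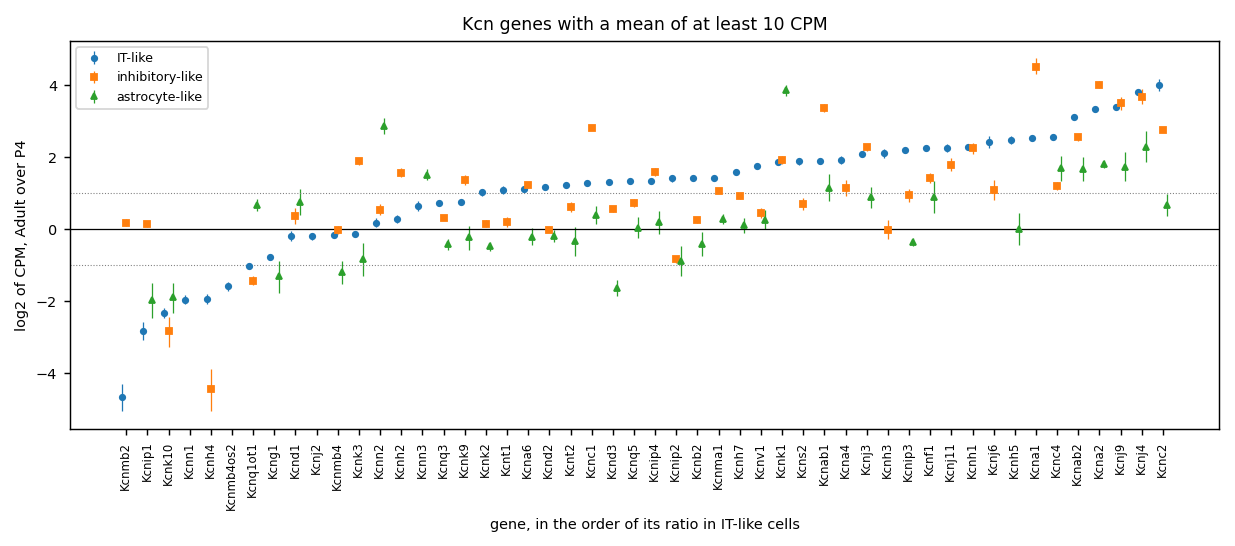
Log2 ratio of Adult over P4 for members past the filter in IT-like cells (points with 95% counting intervals), with the same genes in inhibitory-like and astrocyte-like cells where they passed there. Dotted lines mark 2-fold. Kcnmb2 is at -4.65 in IT-like and 0.18 in inhibitory-like cells.

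The rises were spread over the neuronal classes. Beside a background of 13.4%, 25 of 49 members were higher in Adult than at P4 in layer 5 pyramidal tract (L5 PT)-like cells. The counts were 28 of 48 in layer 5 near-projecting (L5 NP)-like cells (13.8%), 27 of 51 in layer 6 corticothalamic (L6 CT)-like cells (12.1%), 25 of 50 in MGE-like (12.3%) and 26 of 52 in CGE-like interneurons (11.2%). Counts of lower members were 6 of 49 (16%), 1 of 48 (16.2%), 8 of 51 (19.6%), 4 of 50 (18.6%) and 3 of 52 (16.3%). Of the 41 members past the filter in all 6 neuronal classes, 11 rose in each of them, against 5.3% of all such genes, among them Kcna1, Kcna2, Kcnab1, Kcnab2, Kcnc4, Kcnf1, Kcnh1, Kcnj3, Kcnj4 and Kcnj9. Kcnk10 was the 1 member that fell in each (7.48% of all genes). With a mean of at least 50 CPM the counts of higher members were 14, 19, 15, 13 and 12 and those of lower members 0, 0, 1, 1 and 0, in the same order of classes. The shares over all genes above do not belong to this filter, and none is given for it. The classes come from the same 2 libraries, so they are not replicates of the age difference.

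Genes that act beside potassium channels were described as 3 lists. Of 15 genes for channel partner proteins, 10 passed the filter in IT-like cells, 5 rose and 1 fell, where 14.1% of all genes were higher and 18.8% lower. Cntnap1, which holds axonal channels apart from the node of Ranvier, went from 1.14 to 138 CPM (log2 ratio 6.91, 95% interval 6.60 to 7.24), and Amigo1, a Kv2 partner, rose by 2.12 (2.04 to 2.20). Of the 4 pacemaker (Hcn) genes, Hcn2 rose by 1.01 (0.88 to 1.14), while Hcn3 and Hcn4 had ratios of -1.86 (-1.96 to -1.77) and -3.19 (-3.34 to -3.04). Of 10 potassium transport genes, 9 passed in IT-like cells, 5 rose and 0 fell, among them the potassium chloride cotransporter gene Slc12a5 (2.80, 2.76 to 2.84). In inhibitory-like neurons, where 12.1% of all genes were higher and 17.6% lower, 4 of 10 partner genes past the filter rose and 1 fell, 2 of 4 Hcn genes rose and 1 fell, and 5 of 9 transport genes rose and 0 fell.

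Between neuron types, 4 of 54 members were at least 2-fold higher in inhibitory-like than in excitatory-like neurons in each library (background 2.36%), and 6 of 54 were lower (1.89%). The higher ones were Kcnc1, Kcnc2, Kcnip1 and Kcnmb2. Kcnc2 gave log2 ratios of 4.67 (4.61 to 4.72), 4.99 (4.88 to 5.11), 5.03 (4.95 to 5.10) and 4.37 (4.33 to 4.40). The Kcnc1 ratio was larger in later libraries, with 1.21 (1.16 to 1.26), 1.27 (1.22 to 1.33), 1.84 (1.8 to 1.89) and 2.89 (2.85 to 2.92). Kcnip1 and Kcnmb2 had larger ratios in later libraries too, with excitatory levels that were lower there: Kcnmb2 had 15.2 CPM at P4 and 0.857 in Adult excitatory-like neurons, while inhibitory-like neurons had 56.7 and 64.4. The Adult ratios were 4.0 (3.91 to 4.10) for Kcnip1 and 6.23 (5.94 to 6.53) for Kcnmb2. Members lower in inhibitory-like neurons were Kcng1, Kcnh5, Kcnip3, Kcnj4, Kcnk10 and Kcnv1. Kcnv1 gave -1.64 (-1.78 to -1.49), -1.33 (-1.43 to -1.24), -1.92 (-1.99 to -1.84) and -2.62 (-2.73 to -2.52), and Kcng1 gave -2.43 (-2.69 to -2.19), -2.45 (-2.60 to -2.30), -3.16 (-3.29 to -3.03) and -3.00 (-3.27 to -2.75). The count of lower members was 2 with a mean of at least 50 CPM. With each cell thinned to 2000 UMIs, 11 members were lower, the 6 above and Kcna4, Kcnj2, Kcnk9, Kcnmb4 and Kcnmb4os2, named after their values were seen.

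**Figure D4:**
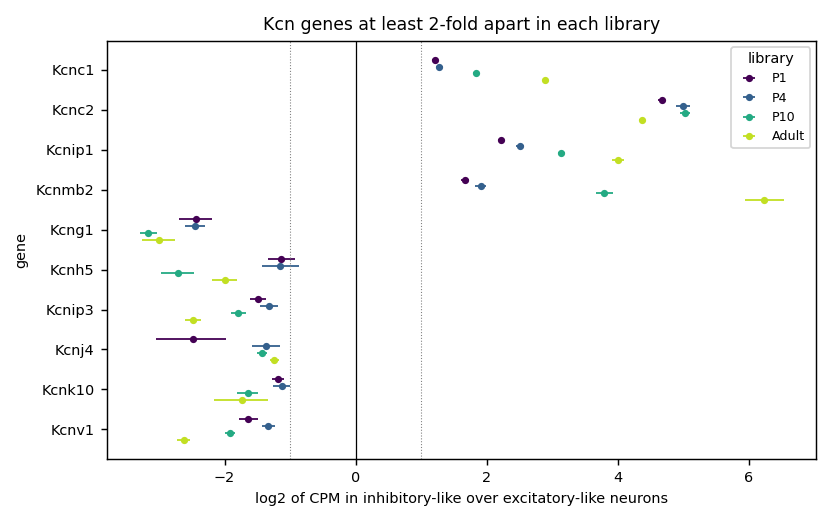
Log2 ratio of CPM in inhibitory-like over excitatory-like neurons, 1 point per library with its 95% counting interval, for the 10 members past 2-fold in the same direction in each library. Dotted lines mark 2-fold. Kcnc2 lies between 4.37 and 5.03, and Kcnmb2 runs from 1.67 at P1 to 6.23 in Adult.

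Within the interneurons, MGE-like cells, which comprise the Sst and Pvalb interneurons, had more Kcnc2 than CGE-like cells, with 1394 against 278 CPM in Adult and log2 ratios of 1.53 (1.44 to 1.62), 2.0 (1.86 to 2.14), 2.58 (2.48 to 2.68) and 2.32 (2.24 to 2.41). Kcns3, a silent subunit, was the member with the largest ratio of the MGE-like mean to any other class. It had 20.3, 11, 9.16 and 43.5 CPM in MGE-like cells and 0.832, 0.740, 4.44 and 7.49 CPM in CGE-like cells. Kcnip2 also stood higher in MGE-like cells, by 3.84 (3.41 to 4.29), 2.80 (2.57 to 3.03), 2.22 (2.01 to 2.42) and 1.79 (1.48 to 2.12). In CGE-like cells Kcnip1 had 226, 147, 241 and 256 CPM.

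Among excitatory classes, L5 PT-like and L6 CT-like cells were each set against IT-like cells. Few genes of any kind passed 2-fold in each library there, and no such count is given for L5 NP-like cells. In L5 PT-like cells, 0 of 53 members were higher than in IT-like cells in each library (background 0.64%) and 3 of 53 were lower (0.759%): Kcnh1, Kcnh5 and Kcnj2. The count of lower members was 0 with a mean of at least 50 CPM. Kcnh1 had 2.11, 5.03, 10.8 and 29.4 CPM in L5 PT-like cells, with log2 ratios to IT-like cells of -2.34 (-2.70 to -2.0), -2.49 (-2.73 to -2.27), -2.43 (-2.61 to -2.27) and -2.23 (-2.37 to -2.10). Kcnh5 had ratios of -2.20 (-2.52 to -1.89), -3.01 (-3.48 to -2.58), -4.91 (-5.44 to -4.42) and -3.66 (-3.99 to -3.34). Kcnj2 gave -3.55 (-3.77 to -3.33), -2.42 (-2.68 to -2.17), -3.62 (-4.44 to -2.91) and -3.27 (-3.8 to -2.78). Kcng1 had its highest class mean in L5 PT-like cells, 26.4, 80.8, 184 and 136 CPM, but its ratio to IT-like cells at P4 was 0.38 (0.31 to 0.44). Without the P1 library 1 member, Kcnip1, was higher in L5 PT-like cells in each of the other libraries.

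In L6 CT-like cells, 1 of 53 members was higher than in IT-like cells in each library (background 1.17%) and 2 of 53 were lower (1.22%). Kcnip3, a KChIP that also binds DNA, was the higher one, with 93.6, 80.6, 127 and 308 CPM and log2 ratios of 1.51 (1.45 to 1.57), 1.43 (1.34 to 1.52), 1.64 (1.57 to 1.70) and 1.16 (1.12 to 1.21). Kcnab1 and Kcnq5 were the lower ones, with ratios of -1.07 (-1.19 to -0.95), -1.64 (-1.84 to -1.45), -1.24 (-1.34 to -1.15) and -2.22 (-2.36 to -2.09) for Kcnab1 and -1.02 (-1.06 to -0.98), -1.18 (-1.30 to -1.07), -1.96 (-2.05 to -1.87) and -1.92 (-2.02 to -1.82) for Kcnq5. The class was not made up alike in each library: the P10 cells split at a resolution of 1.0 into 1692 L6 CT-like and 175 L6b-like cells led by Ctgf and Cplx3, whereas a Ctgf cluster of 256 cells at P4 was separate and left out. At P1 the class joined 1403 cells with a cluster of 552, of which Scrublet marked 20.1% as doublets. The leading genes of the 552 cells included Tle4, Rprm and Syt6. They also included Etv1, Tshz2 and Bcl11b, which were among those of the P4 L5 NP-like cluster. At a resolution of 1.0, 3 members were higher. When the P1 library was left out, 3 members were higher, Kcna1 and the leak channel gene Kcnk3 beside Kcnip3. Kcnk3 had ratios of 0.65 (0.58 to 0.73), 1.56 (1.48 to 1.65), 2.23 (2.14 to 2.32) and 1.48 (1.38 to 1.57), below 2-fold in the P1 library. The Kcnq5 ratio at P1 lay close to the limit, and 1 member was lower with a mean of at least 50 CPM, with all genes in the denominator or with a wider IT-like class.

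L5 NP-like cells could not be named at P1. In the other libraries they had the highest class mean of Kcnmb4, with 142, 224 and 167 CPM (from P4), against 94.4, 104 and 84.5 CPM in IT-like cells. Kcnk2, a leak channel gated by stretch and fatty acids, was higher in L5 NP-like than in IT-like cells by 2.19 (2.05 to 2.32), 1.96 (1.88 to 2.04) and 2.13 (2.04 to 2.22) (from P4). Kcnd2 gave 1.59 (1.52 to 1.66), 1.35 (1.30 to 1.4) and 0.70 (0.64 to 0.75) (from P4), so that the difference was smaller in Adult.

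**Figure D5:**
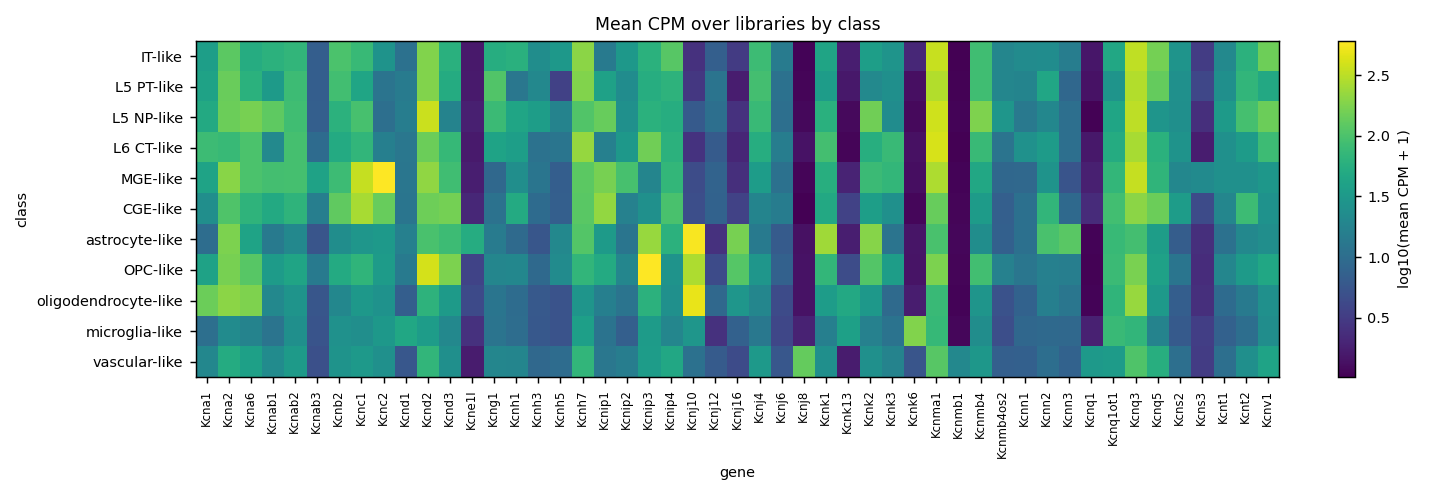
Mean CPM over the libraries, as log10(mean CPM + 1), of named members (columns) in 11 classes (rows). Each mean takes the libraries in which the class was named. OPC-like and L5 NP-like means thus lack P1, and oligodendrocyte-like means lack P1 and P4. Bright cells show Kcnc1 and Kcnc2 in MGE-like cells, Kcnj10 in astrocyte-like and oligodendrocyte-like cells, Kcnip3 in OPC-like cells, Kcnk6 in microglia-like cells and Kcnj8 in vascular-like cells.

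In astrocyte-like cells 5 of 54 members were at least 2-fold higher than in excitatory-like neurons in each library, a share near the background of 10.7%, and 18 of 54 were lower (background 5.5%), or 9 lower with a mean of at least 50 CPM. The P1 cells of this class were a cluster of 150 led by Aldoc, Hgf, Plagl1 and Hopx, and at a resolution of 1.0 a further 227 cells of P1 led by Tnc, Slc4a4 and Aqp4 were astrocyte-like, so that the P1 levels and the counts over each library rest on a part of these cells. Kcnj10, the inward rectifier through which astrocytes clear potassium, had 168, 346, 1103 and 679 CPM, and its log2 ratio to excitatory-like neurons was 7.89 (7.62 to 8.16), 8.09 (7.87 to 8.32), 8.87 (8.72 to 9.02) and 7.97 (7.81 to 8.14). Kcnj16, which forms channels with it, had 4.39, 104, 269 and 284 CPM. Kcnn3, a small conductance channel gene, had 74.0, 58.6, 170.1 and 167 CPM. The others were Kcnk2 with 254, 169, 225 and 122 CPM and Kcne1l, an auxiliary subunit gene on the X chromosome, with 87.5, 62.5, 52.8 and 8.09 CPM. In thinned cells a Kcnj10 UMI was seen in 52.1% of astrocyte-like cells at P4 and 80.9% at P10 (79.6% and 94.3% before thinning), against 1.32% and 5.48% of thinned microglia-like cells.

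With age, 10 of 42 members rose in astrocyte-like cells (background 9.85%) and 6 of 42 fell (17.3%), with a median log2 ratio of 0.23 over the members and -0.23 over all genes. The count of rises was 17 with clusters at a finer resolution and 5 with a mean of at least 50 CPM, where 2 fell. Kcnk1, a leak channel gene, had 51.1, 41.1, 288 and 595 CPM and rose by 3.86 (95% interval 3.70 to 4.01), 14.5-fold. Kcnn2 had 66.2, 22.4, 134 and 161 CPM (log2 ratio 2.85, 2.64 to 3.07). Kcnj16 and Kcnn3 rose by 1.45 (1.34 to 1.57) and 1.51 (1.36 to 1.67). Kcnj10 was highest at P10, and its Adult over P4 ratio of 0.97 (0.91 to 1.04) did not pass 2-fold. Kcna2 had 61.8, 98.5, 178 and 346 CPM (1.81, 1.70 to 1.92). Kcne1l was lowest in Adult and fell, with a log2 ratio of -2.95 (95% interval -3.41 to -2.51). Kcnd3, Kcnip1, Kcnk10, Kcng1 and Kcnmb4 also fell, with ratios from -1.96 (-2.46 to -1.49) for Kcnip1 to -1.20 (-1.52 to -0.89) for Kcnmb4. Beside these falls, Neurod6, a gene of excitatory neurons, went from 610.0 CPM at P4 to 73.9 in Adult astrocyte-like cells, and Scrublet marked 311 of 1425 cells as doublets at P4 and 20 of 1716 in Adult. With marked doublets removed 15 members rose, 8 of them among the 10 above, and 4 fell. The part of neuronal RNA in the falls was not tested.

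Some rises in astrocyte-like cells were of neuronal genes at low level. Kcnj4 had 1.88, 6.27, 14.4 and 30.6 CPM, Kcnj9 0.941, 8.36, 10.1 and 27.6 CPM, Kcnab1 6.59, 11.5, 8.37 and 25.5 CPM and Kcnab2 9.41, 12.6, 15.5 and 40.3 CPM. Microglia-like cells had 23.2, 32.1, 22.2 and 41.7 CPM of these 4 genes in Adult, and 9.57, 6.83, 8.20 and 20.5 at P4. The excitatory gene Slc17a7 went from 79.5 to 336 CPM in astrocyte-like and from 84.7 to 232 in microglia-like cells. The Adult values of these Kcn genes in astrocyte-like cells thus lay near those of microglia-like cells, and the part of neuronal RNA in them was not tested. Kcnj4, Kcnj9 and Kcnab1 passed the filter in astrocyte-like cells only with Adult counted in their mean. For Kcnk1, Kcnn2, Kcnn3, Kcnj16 and Kcna2 the Adult microglia-like levels were 14.3, 6.42, 2.22, 4.94 and 50.9 CPM, below those in astrocyte-like cells. The P1 astrocyte-like class had 150 cells, and in it Neurod6 stood at 389 CPM, against 184 in the microglia-like cells of that library.

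Oligodendrocyte precursor (OPC)-like cells had the highest mean of Kcnip3 over their libraries among the classes compared, with 415, 777 and 631 CPM (from P4), and the highest mean of Kcnd2, the A-type channel that KChIP proteins bind, with 391, 515 and 317 CPM (from P4). In Adult the Kcnd2 level of L5 NP-like cells, 377 CPM, lay above that of OPC-like cells. In these cells 29 of 51 members were higher in Adult than at P4 (background 10.5%) and 1 of 51 was lower (8.46%). With a mean of at least 50 CPM 9 were higher and 0 lower, and with thinned cells 19 were higher. Neuronal transcripts rose in them too, with Slc17a7 at 71.9 CPM at P4 and 764 in Adult and the synaptic gene Snap25 at 399 and 2055 CPM. The 29 members include genes of neurons, such as Kcnj4 with 6.25, 12.2 and 67.0 CPM (from P4) and Kcnj9 with 4.34, 13.4 and 56.9 CPM (from P4), and the part of neuronal RNA in the count was not tested. Kcnj10, a glial gene, was among those that rose, with 136, 316 and 391 CPM (from P4). Oligodendrocyte-like cells, named at P10 and in Adult, held Kcnj10 at 309 and 674 CPM (P10 and Adult). Their Kcna1 had 35.3 and 255 CPM (P10 and Adult) and Kcna6 39.2 and 314 CPM (P10 and Adult). Kcnk13 was at 1 UMI at P10 (0.426 CPM, 95% interval 0.0108 to 2.37) and 94.6 CPM (95% interval 86.4 to 103) in Adult. The leading genes of the P10 cluster included Enpp6 and Bcas1 and those of the Adult cluster Mal, Ermn and Mog, while 109 Adult cells led by Enpp6 and Gpr17 formed a class of their own. Age and stage of these cells thus cannot be told apart.

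Microglia-like and vascular-like cells had 35 and 44 members above 10 CPM, some of them near 0 in the other classes. Kcnk6 had a mean of 179.5 CPM in microglia-like cells, 39.7 times that of the next class, with 164, 108, 232 and 213 CPM. A Kcnk6 UMI was found in 29.0% of thinned Adult microglia-like cells (52.0% before thinning), against 0.0637% of thinned astrocyte-like cells. Kcnd1, a Kv4 gene, followed with 42.5, 30.1, 53.0 and 56.3 CPM. The P1 and P4 classes had 34 and 77 cells, so these levels rest on 147 and 79 UMIs of Kcnk6. Vascular-like cells pool endothelial-like, mural-like and fibroblast-like clusters. The mural-like clusters held 36 of 116 cells at P1 and 111 of 956 in Adult, at P4 and P10 the mural gene Rgs5 was among the genes leading the endothelial-like cluster, and hemoglobin genes were among them at P1, P4 and P10. These cells had Kcnj8, the pore of vascular ATP-sensitive channels, at 249, 128, 117 and 38.9 CPM. Kcnmb1, the BK subunit of smooth muscle, had 15.8, 20.8, 18.8 and 21.6 CPM, and Kcnq1 had 47.4, 33.0, 33.9 and 8.89 CPM. Neuronal transcripts were present as well, with Kcnj4 at 81.2 and Slc17a7 at 878 CPM in the Adult vascular-like cells.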

How the data were processed

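Single cells of mouse prefrontal cortex were captured on the BD Rhapsody whole transcriptome platform, 1 library each at P1, P4, P10 and Adult. Per the file headers, the authors made the deposited tables of UMI counts per cell and gene with the BD Rhapsody WTA Analysis Pipeline (version 1.11 for P1 and 1.8 for the others, while the study's methods state 1.11 for all) on GRCm38 with GENCODE M19. The P1 header names the library P0, and its intronic reads were not excluded. Whether counting used strand is not given in the sources used here. The tables held 11673, 19646, 16114 and 15961 barcodes and 340724049, 273834131, 287594712 and 200198548 UMIs.

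Cells with at least 1000 UMIs and 1000 genes and at most 15% mitochondrial UMIs were kept, as in the study. Each library was clustered on its own (scanpy 1.11.5, 2000 variable genes, 30 components, 20 neighbors, Leiden resolution 0.5) without Kcn, partner, mitochondrial and ribosomal protein genes, and clusters were named from marker lists. The naming thresholds were set after the clusters had been seen. Doublets were marked with Scrublet and kept in the main values, and clusters with more than 50% marked cells were left unnamed. The UMI counts were summed per class and library. Levels have exact Poisson and ratios exact conditional binomial 95% intervals (scipy 1.17.1), which cover counting error only. No test between ages was possible with 1 library per age. A gene past the filter had a mean of at least 10 CPM over the libraries of the class, Adult included. It was called higher or lower at 2-fold or more with an interval that excluded 1. The script that makes these calls was tested on simulated data. For levels of at least 10 CPM, the median width to either side was 2.4% to 4.18% of the level in IT-like cells, 12% to 14.8% in astrocyte-like cells and 19.7% to 50.9% in microglia-like cells.

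Members were named by a rule: the 10 largest rises and falls in IT-like cells, the 5 largest in inhibitory-like and astrocyte-like cells, the 3 most class-specific members of each class, and a list of members with known roles. Kcna3, Kcna4, Kcna5, Kcna7, Kcna10, Kcnf1, Kcng2, Kcnj3, Kcnj11, Kcnk9 and Kcnab3os were named after their values were seen. Members, lists and comparisons were chosen with earlier results of these data known. Alternatives were another denominator, a median ratio size factor, filters on low values, a stricter cell filter, doublet removal, thinning of each cell to 2000 UMIs and finer clusters. Gene positions are from GENCODE M21 and promoters from the RefSeq table. A few genes that the rule named are not reported here.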

Additional observations from a re-analysis of the deposited data

How the results depend on the processing

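The 26 counts of Kcn genes by age in single classes and between classes moved by at most 1.5 times with a median ratio size factor, with a stricter cell filter and with doublets removed, where astrocyte-like rises went from 10 to 15 and falls from 6 to 4. Counts over all 6 neuronal classes together were not recomputed. Other settings moved some of them, and the filters do so by construction, since they change which genes are counted. Without a filter on low values, 13 members were lower in Adult than at P4 in IT-like cells and 11 in inhibitory-like neurons, 16 were higher and 15 lower in astrocyte-like cells, 1 (Kcng2) was higher in L5 PT-like than in IT-like cells, and 2 (Kcna5 added) in L6 CT-like cells. With a mean of at least 50 CPM, 22 were higher and 0 lower with age in IT-like cells, 13 and 1 in inhibitory-like neurons, and 5 and 2 in astrocyte-like cells. With that filter 2 members were lower in inhibitory-like and 9 in astrocyte-like than in excitatory-like neurons, and 0 in L5 PT-like and 1 in L6 CT-like than in IT-like cells. With cells thinned to equal depth 11 were lower in inhibitory-like than in excitatory-like neurons. Clusters at a resolution of 1.0 gave 17 rises in astrocyte-like cells and 3 members higher in L6 CT-like than in IT-like cells. With all genes in the denominator 1 member was lower in L6 CT-like than in IT-like cells, and also 1 with a wider IT-like class. The wider class and leaving out P1 were chosen after seeing the data. Without P1, 1 member was higher in L5 PT-like and 3 in L6 CT-like than in IT-like cells. Apart from the filters, the cause of these moves was not tested.

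The median log2 ratio of all genes between Adult and P4 was -0.17 in IT-like, -0.17 in inhibitory-like and -0.23 in astrocyte-like cells, and -0.11, -0.06 and -0.07 with the size factor. Of the 47 log2 ratios of Adult over P4 recomputed in IT-like cells, 13 stayed inside their counting interval with thinned cells, 14 at the finer resolution, 31 in the wider IT-like class and 35 with the size factor, and 0 changed direction. Ratios of single genes in other classes were not recomputed. No paired analysis was possible because each age has 1 library. Depth limits the small classes most, such as the 34 microglia-like cells at P1.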

Other observations

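Some named members were not described above. Kcnq1ot1, the noncoding transcript, had its highest mean in CGE-like cells, with 174, 76.8, 49.4 and 44.9 CPM. In microglia-like cells it had 79.4, 60.1, 72.3 and 96.6 CPM, and the levels were 86.9, 56.8, 67.7 and 90.8 CPM in astrocyte-like cells. In IT-like and inhibitory-like neurons P1 was the highest library for it, and Adult the lowest. Kcnj12, a strong inward rectifier gene, had 4.62, 8.42, 10.9 and 20.3 CPM in L5 PT-like cells and 0.969, 2.52, 7.54 and 13.6 CPM in IT-like cells. Kcnh3 had 20.4, 43.0 and 41.2 CPM (from P4) in L5 NP-like cells. Kcnb2, a Kv2 gene, had 183, 85.8, 90.4 and 149 CPM in CGE-like and 116, 72.1, 62.7 and 74.9 CPM in MGE-like cells. Kcnn1 had 7.91, 30.6, 44.6 and 15.4 CPM and Kcnh7 258, 127, 154 and 341 CPM in L6 CT-like cells. Each series of 4 levels runs from P1 to Adult. These are levels of 1 library per age, with no test.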
